A study of Rattus norvegicus with 12 samples.

Results

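The genes described here carry cystine into the cell and make, recycle, use and export glutathione. They are Slc7a11, Gclc, Gclm, Gss, Gsr, Gpx1, Gpx4, Abcc1, Gstp1 and Gsta4, 10 of the 36174 gene names on the array, and they were read by 15 of its 45598 probes. They were chosen as a pathway, with earlier results of these data known, and every probe that the scanner files assign to one of these symbols was taken. The samples were cultures of N27, an immortalised rat line labelled as dopaminergic neurons. In 7 of them (KO 1 to KO 7) the channel VDAC1, through which metabolites cross the outer membrane of mitochondria, had been removed by CRISPR. The other 5 (WT 3, WT 5, WT 6, WT 7 and WT 8) were wild type, and all were grown to 80% confluence with no further treatment given. The sources used here give neither the site of the edit in Vdac1 nor whether the knockout cultures descend from 1 clone or cultures were independent, and the p-values measure only the spread between these cultures. Each culture was hybridised to one 1-colour Agilent array.

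Glutathione is a tripeptide of glutamate, cysteine and glycine and the main soluble thiol of animal cells. Cysteine usually limits its synthesis, and cells in culture take up much of it as cystine, through the exchanger whose light chain is Slc7a11. Glutathione donates electrons to peroxidases that reduce hydrogen peroxide and lipid peroxides, is joined to electrophiles by transferases, and leaves the cell in conjugated or oxidised form through pumps of the Abcc family. Dopamine neurons form peroxides and quinones when they handle dopamine, and loss of glutathione in the substantia nigra is a known feature of Parkinson's disease.

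The sequences of 6 of the 15 probes are shown first, because which probe was read decides what could be said of a gene. The probes for Slc7a11 at base 1579, Abcc1 at base 2634 and Gsr at base 985 of their transcripts stayed near the detection limit, the probe for Gsta4 at base 540 was above it on some arrays only, and the probes for Gstp1 at bases 346 and 389 are near neighbours. Capitals mark the 17 bases that both Gstp1 probes share. All are 60 bases long and are given 5′ to 3′ as the scanner files hold them, with rn4 coordinates from the same files.
Slc7a11, chr2:139248397-139248456, minus strand: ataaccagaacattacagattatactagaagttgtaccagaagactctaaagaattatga
Abcc1, chr10:478141-478200, minus strand: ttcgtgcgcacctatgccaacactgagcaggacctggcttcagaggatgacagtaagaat
Gsr, chr16:62257899-62258792, minus strand: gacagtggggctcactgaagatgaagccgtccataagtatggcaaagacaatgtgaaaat
Gsta4, chr8:83181572-83181631, plus strand: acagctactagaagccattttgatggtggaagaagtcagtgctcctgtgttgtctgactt
Gstp1, chr1:206628636-206628695, minus strand: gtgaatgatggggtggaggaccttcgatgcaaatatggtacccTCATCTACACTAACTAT
Gstp1, chr1:206627875-206628652, minus strand: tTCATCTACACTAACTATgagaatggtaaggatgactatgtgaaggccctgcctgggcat

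The span of the Gsr probe and of the second Gstp1 probe exceeds 60 bases in the files' coordinates, which were not checked against a genome. The Gclm probe, at base 1211, held 15% G and C, and only 15 probes of the array held as little. Of the 110 probes with at most 20% G and C, 21.8% passed the filter used below, against 39.2% of all probes.

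Levels are given as log2 of the processed signal minus the 75th percentile of the same array, and they compare one probe between arrays, not one gene with another. The arrays' 75th percentile ranged from 142.7 to 691.8 intensity units in the knockout and from 120.1 to 449.7 in the wild type, 42.3% to 53.8% of spots were well above background by the scanner software's call, and 0 spots were saturated. The arrays lay on 3 slides that each held both genotypes, in unequal numbers on slide 2 (KO 1, KO 2, KO 3 and WT 5). Slide 3 (KO 4, KO 5, WT 6 and WT 7) was scanned on another day than the others. Its 75th percentiles were 142.7, 147.9, 189.7 and 120.1, and those of the other arrays 219.9 or higher. On all 3 probes for Vdac1 itself, the knockout arrays lay below the wild-type arrays without overlap (differences of -1.23, -1.22 and -1.15, exact two-sided permutation p = 0.00505, 0.00126 and 0.00631, of which 0.00126 is the smallest that 792 splits of the arrays allow). In the limma fit used for the other genes, the adjusted p was 0.0562, 0.0422 and 0.0897 for these probes, so the brightest missed the threshold. Its transcript stayed measurable on all 12 arrays. Of 11 dopaminergic neuron markers, 4 passed the filter used below and 2 were well above background on all 12 arrays. Tyrosine hydroxylase (Th) was 1 of these 2, with medians of -1.50 in the knockout and -1.76 in the wild type. Slc6a3, Lmx1a, Foxa2, En1 and Ddc were above background on 0 arrays. Of 10 neuron markers, 3 passed the filter, 2 were above background on all 12 arrays, and 6 (Map2, Snap25, Syp, Nefl, Nefm and Stmn2) on 0.

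No gene of the glutathione system passed the threshold between knockout and wild type. With limma, fitted over 17890 probes, those detected well above background on 5 or more of the 12 arrays, 0 of the 8 genes tested were called at an adjusted p under 0.05, while 1.15% of all tested probes were called, 0.704% higher and 0.442% lower. At an unadjusted p under 0.05, Slc7a11 and Abcc1 were lower and Gsta4 was higher in the knockout, in a background of 6.62% of probes lower and 9.2% higher at that level. The median difference over the 8 genes was -0.055, and over all tested probes 0.035. The 8 genes were read by 11 probes that passed the filter, and Gclm and Gsr had no probe that passed.

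**Figure D1:**
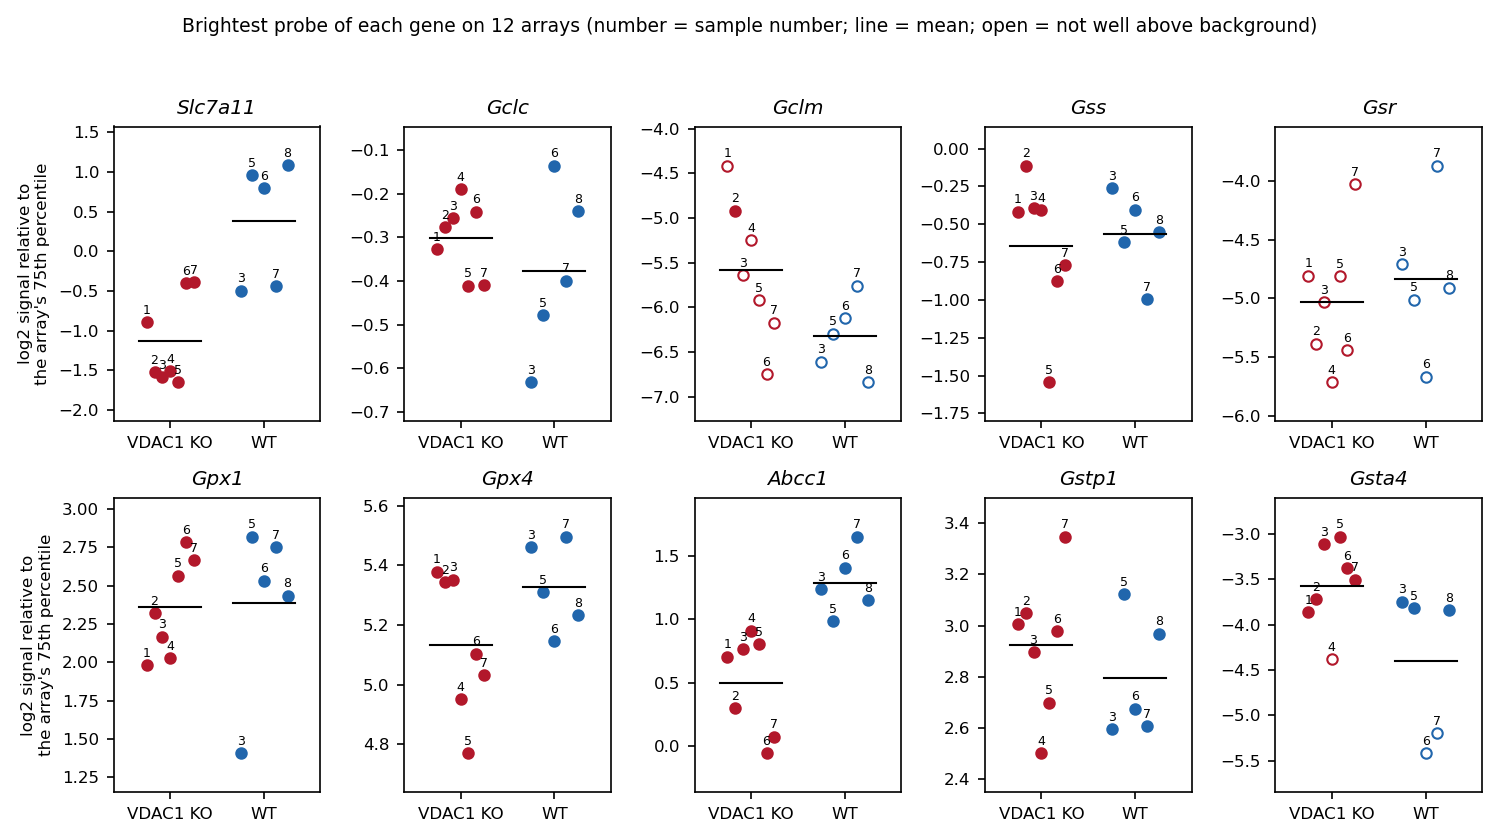
Level of the brightest probe of each gene on each array, as log2 signal relative to the array's 75th percentile, with the 7 VDAC1 knockout arrays left of the 5 wild-type arrays and a line at each mean. Each panel has its own axis, points carry the sample number, and open points were not well above background. Abcc1 has every knockout array below every wild-type array, and for Slc7a11 the lower wild-type arrays, WT 3 and WT 7, lie close to KO 6 and KO 7.

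Slc7a11, the light chain of the cystine and glutamate exchanger, had the largest difference of the 8 genes tested. In RNA of whole cultures, fewer cells with a transcript and less of it per cell cannot be told apart. Its probe at base 8508 (chr2:139241468-139241527, minus strand, rn4) read -0.90, -1.53, -1.58, -1.51, -1.65, -0.40 and -0.39 across KO 1 to KO 7, and -0.50, 0.96, 0.79, -0.44 and 1.08 in WT 3, WT 5, WT 6, WT 7 and WT 8. KO 1 to KO 5 lay below every wild-type array, while KO 6 and KO 7 lay just above WT 3 and WT 7. The knockout mean was -1.14 ± 0.565 (SD, n = 7) and the wild-type mean 0.38 ± 0.779 (SD, n = 5), 2.86-fold lower in the knockout. The difference of -1.52 (SE 0.35, 95% interval -2.26 to -0.77) missed the threshold with a limma adjusted p of 0.0562, and 0.145% of tested probes had a difference further below 0.

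The Slc7a11 call depended on how the arrays were grouped. The 5 arrays whose labels carry sample numbers 1 to 4 and the 7 numbered 5 to 8 did not overlap on 13.8% of tested probes. With that split as a block the difference was -1.24 (limma adjusted p = 0.0455, in a fit that called 2.15% of probes lower), and among the arrays numbered 5 to 8 alone it was -1.41 (limma adjusted p = 0.123). With slide as a block it was -1.51 (limma adjusted p = 0.0482, in a fit that called 1.05% of probes lower). Slide 1 alone gave -0.68, slide 2, with 1 wild-type array, -2.29, and slide 3 -1.76. On slide 2 genotype and sample-number set cannot be told apart, since it held KO 1 to KO 3 and WT 5. Without WT 3 the Slc7a11 difference was -1.73 (limma adjusted p = 0.0200, with 1.86% of probes called lower), and leaving out any other single array kept the adjusted p above the threshold.

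The other Slc7a11 probe, at base 1579, was above background on 0 of 7 knockout arrays and on 2 of 5 wild-type arrays and was not tested. It read -5.33, -6.61, -6.46, -5.40, -4.75, -5.42 and -6.22 across KO 1 to KO 7, and -6.78, -4.51, -4.06, -5.35 and -4.35 in WT 3, WT 5, WT 6, WT 7 and WT 8. The 3 highest wild-type arrays on this probe, WT 5, WT 6 and WT 8, were also the 3 highest on the probe at base 8508. With the knockout set to the lowest signal that counts as detected, the measured wild-type mean was 1.09-fold higher. That is not a lower bound, since only 2 wild-type arrays were above background. The mean also holds WT 3, WT 6 and WT 7, which were not.

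**Figure D2:**
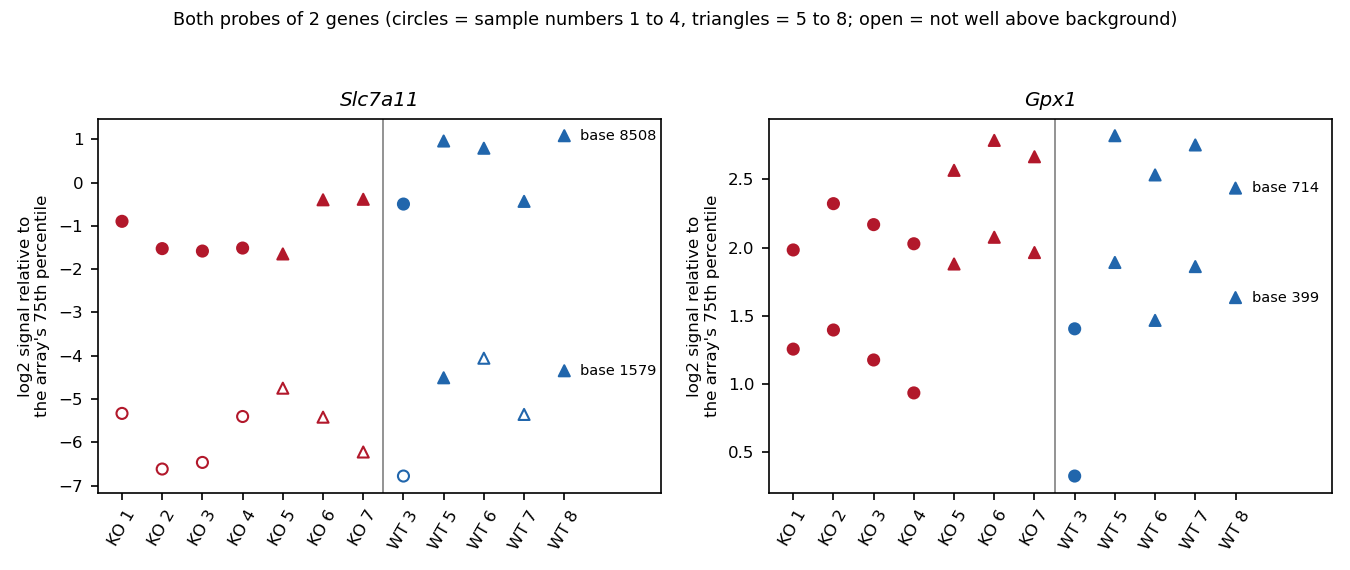
Level of both probes of Slc7a11 and of Gpx1 on each array, as log2 signal relative to the array's 75th percentile, with knockout arrays left of the line and wild-type arrays right of it. Circles are sample numbers 1 to 4, triangles 5 to 8, and open symbols were not well above background. Slc7a11 is highest in WT 5, WT 6 and WT 8 on both probes, and every circle lies below every triangle of the same Gpx1 probe.

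Among 9785 genes, each profile taken around its own mean over the 12 arrays, the closest to Slc7a11 was Egr1, an immediate early transcription factor, at a root mean square distance of 0.367 log2 units. Next were Podxl, a sialomucin of the cell surface, at 0.371, Cxcl2, a chemokine, at 0.435, and Map1b, a microtubule-associated protein, at 0.468. The Slc7a11 profile itself had an SD of 0.959 over the 12 arrays.

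Synthesis of glutathione was read well for its first and last enzyme. Gclc, the catalytic subunit of glutamate-cysteine ligase, had a probe at base 2773 (chr8:82762574-82762633, plus strand, rn4). It read -0.33, -0.28, -0.26, -0.19, -0.41, -0.24 and -0.41 across KO 1 to KO 7, and -0.63, -0.48, -0.14, -0.40 and -0.24 in WT 3, WT 5, WT 6, WT 7 and WT 8. Every knockout array lay within the wild-type range, and WT 3 and WT 5 lay below all knockout arrays. The difference was 0.075, with a 95% interval of -0.18 to 0.33 (limma adjusted p = 0.808).

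Gclm, the modifier subunit that makes the ligase more efficient, could not be compared. Its probe read between -6.75 and -4.41 in the knockout, with 1 of 7 arrays above background, and between -6.84 and -5.76 in the wild type, with 0 of 5. That probe is the one with 15% G and C described above, and no other probe for Gclm was found by its symbol.

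Gss, glutathione synthetase, adds glycine in the second step. Its probe at base 1329 (chr3:146058010-146059080, minus strand, rn4) read -0.42, -0.11, -0.39, -0.41, -1.54, -0.88 and -0.77 across KO 1 to KO 7, and -0.26, -0.62, -0.40, -0.99 and -0.55 in WT 3, WT 5, WT 6, WT 7 and WT 8. KO 5 was the lowest array, and the others of both genotypes overlapped. The difference was -0.080 (95% interval -0.57 to 0.41, limma adjusted p = 0.903), and it was 0.070 without KO 5.

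Gsr, glutathione reductase, returns oxidised glutathione to its reduced form with NADPH. Its probe was above background on 0 of 12 arrays, with readings between -5.71 and -4.03 in the knockout and between -5.67 and -3.87 in the wild type. Neither a level nor a difference can be given for it from these arrays.

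The glutathione peroxidases were read by probes that were well above background on all 12 arrays. Gpx1, the peroxidase of cytosol and mitochondria, read 1.98, 2.32, 2.17, 2.03, 2.57, 2.78 and 2.66 across KO 1 to KO 7 at base 714, and 1.40, 2.82, 2.53, 2.75 and 2.44 in WT 3, WT 5, WT 6, WT 7 and WT 8. WT 3 stood apart as the lowest of the 12 arrays. WT 5 was the highest of the 12, WT 7 lay between KO 6 and KO 7, and WT 6 and WT 8 lay between KO 2 and KO 5. The difference between genotypes was -0.029 (95% interval -0.55 to 0.49, limma adjusted p = 0.970) and at base 399 it was 0.091 (95% interval -0.53 to 0.71, limma adjusted p = 0.917).

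On both Gpx1 probes the arrays numbered 1 to 4 and those numbered 5 to 8 did not overlap. At base 714 the 5 arrays numbered 1 to 4 read 1.40 to 2.32 and the 7 numbered 5 to 8 read 2.44 to 2.82, and at base 399 the ranges were 0.33 to 1.40 and 1.47 to 2.08. Gpx1 was the 1 gene of the 8 tested whose brightest probe separated these 2 sets, a share near the 13.8% of all tested probes that did so. Blocked on these sets, the Gpx1 difference at base 714 was 0.25 (95% interval -0.07 to 0.58, limma adjusted p = 0.361), opposite in sign to that without it. At base 399 the blocked difference was 0.45 (95% interval 0.13 to 0.78, limma adjusted p = 0.105). The array carries each Gpx1 probe 10 times, and the SD between the spots of one array was 0.030 to 0.278 at base 714 and 0.033 to 0.193 at base 399. The files place both probes on 16_random, sequence assigned to that chromosome without a position in rn4.

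Gpx4, the peroxidase that reduces lipid peroxides in membranes and restrains ferroptosis, read 5.38, 5.34, 5.35, 4.95, 4.77, 5.10 and 5.03 across KO 1 to KO 7 at base 931 (chr7:11162522-11162581, minus strand, rn4). It read 5.46, 5.31, 5.15, 5.50 and 5.23 in WT 3, WT 5, WT 6, WT 7 and WT 8. KO 4 to KO 7 lay below every wild-type array, and KO 1 to KO 3 lay among them. The difference was -0.20 (95% interval -0.50 to 0.11, limma adjusted p = 0.527), and at base 529 it was -0.12 (95% interval -0.50 to 0.26, limma adjusted p = 0.792).

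Abcc1, a pump that exports glutathione conjugates and oxidised glutathione, was the 1 gene of the 8 tested whose groups did not overlap. Its probe at base 4921 (chr10:452239-452298, minus strand, rn4) read 0.70, 0.30, 0.76, 0.91, 0.80, -0.06 and 0.08 across KO 1 to KO 7, and 1.24, 0.99, 1.41, 1.65 and 1.15 in WT 3, WT 5, WT 6, WT 7 and WT 8. Every knockout array lay below every wild-type array, as 0.933% of all tested probes did. The knockout mean was 0.50 ± 0.388 (SD, n = 7) and the wild-type mean 1.29 ± 0.254 (SD, n = 5), 1.73-fold lower in the knockout. The difference of -0.79 (SE 0.20, 95% interval -1.21 to -0.36) missed the threshold with a limma adjusted p of 0.0747.

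Abcc1 passed under some groupings of the arrays. Blocked on the sample numbers the difference was -0.88 (limma adjusted p = 0.0264), and with slide as a block it was -0.78 (limma adjusted p = 0.0313). Among the arrays numbered 5 to 8 alone it was -1.02 and did not pass (limma adjusted p = 0.0663). Slide 1 alone gave -1.18, slide 2 -0.40 and slide 3 -0.67. Leaving out 1 array at a time gave differences of -0.86 to -0.69 and limma adjusted p-values of 0.0594 to 0.152, so no single array decided it. The probe at base 2634 was above background on 0 of 12 arrays, and the result rests on the probe at base 4921. The closest profiles were those of Ncam1, a neural cell adhesion molecule, at a root mean square distance of 0.187 log2 units, Napepld, an enzyme that makes N-acylethanolamines, Irf3, a transcription factor of the interferon response, and Dnajc21, a co-chaperone, against an SD of 0.497 for Abcc1 itself.

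**Figure D3:**
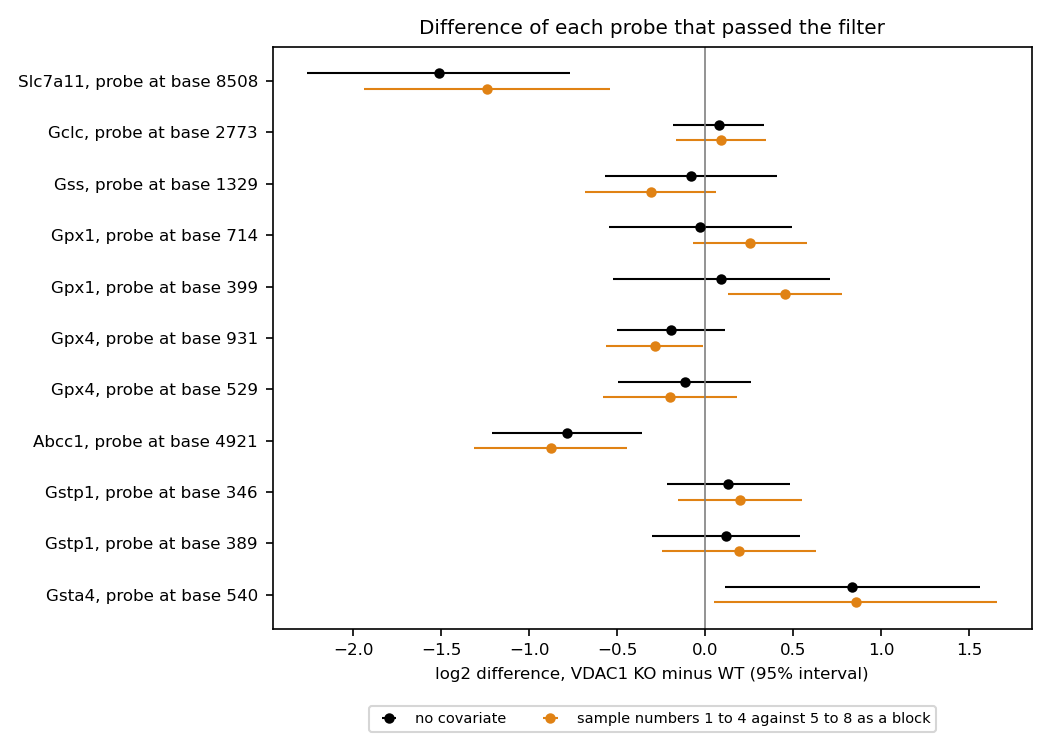
Difference of mean log2 signal, VDAC1 knockout minus wild type, with its 95% interval for each of the 11 probes that passed the filter, without a covariate (black) and blocked on the sample numbers (orange). Slc7a11 at base 8508 (-1.52 and -1.24) and Abcc1 at base 4921 (-0.79 and -0.88) lie below 0 with both intervals, and Gsta4 at base 540 (0.83 and 0.85) above it.

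The glutathione transferases join glutathione to electrophiles. Gstp1, the pi class enzyme, read 3.01, 3.05, 2.90, 2.50, 2.70, 2.98 and 3.35 across KO 1 to KO 7 at base 346, and 2.59, 3.12, 2.68, 2.61 and 2.97 in WT 3, WT 5, WT 6, WT 7 and WT 8. The groups overlapped throughout. The difference was 0.13 (95% interval -0.22 to 0.48, limma adjusted p = 0.737), and at base 389 it was 0.12 (95% interval -0.30 to 0.54, limma adjusted p = 0.817). The 2 probes share the 17 bases shown above and are not independent readings, and each was printed 10 times, with spot SDs within an array of 0.041 to 0.159 and 0.050 to 0.278.

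Gsta4, the alpha class enzyme that conjugates 4-hydroxynonenal, a product of lipid peroxidation, was higher in the knockout before adjustment only. Its probe at base 540 read -3.86, -3.72, -3.11, -4.38, -3.03, -3.38 and -3.51 across KO 1 to KO 7, and -3.75, -3.82, -5.42, -5.20 and -3.84 in WT 3, WT 5, WT 6, WT 7 and WT 8. WT 6 and WT 7 were the low arrays and were not above background, nor was KO 4. The other 3 wild-type arrays lay within the knockout range. The difference was 0.83 (SE 0.34, 95% interval 0.11 to 1.56, limma adjusted p = 0.251), and with another background correction (normexp) it was 0.036. Normexp was run with an offset of 50 intensity units added to each signal. Processed signals of this probe ran from 3.28 in WT 7 to 57.2 in KO 6. An offset of that size draws log2 differences of so dim a probe toward 0. How far signal at background sets the size of the Gsta4 difference was not tested. WT 6, WT 7 and KO 4 all lay on slide 3. Slide 3 alone gave a Gsta4 difference of 1.603, against 0.35 for slide 1 and 0.25 for slide 2, which held 1 wild-type array.

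Promoter sequence from RefSeq (GRCr8), 250 bases before to 50 after the start of transcription, matched 9 of the 10 genes in 11 windows, with no entry used for Gsr. The antioxidant response element, the site of the transcription factor NRF2, was searched as TGACNNNGC on both strands and was found in 12.1% of 33469 rat promoters. It was found for 2 of the 9 genes, Gclm (172 bases before the start, minus strand) and Gstp1 (61 bases before the start, plus strand). The amino acid response element, a site of ATF4, was searched as TGATGNAA, found in 3.98% of promoters and in 0 of the 9 genes. GGGCGG, the GC box, was found in 33.1% of promoters and for 7 of the 9 genes. The Gstp1 promoter is shown because Gstp1 is the gene with such a match that the arrays could measure. It covers the 250 bases before the start (chr1:210769706-210769955, minus strand, GRCr8), with the match in capitals.
Gstp1 promoter: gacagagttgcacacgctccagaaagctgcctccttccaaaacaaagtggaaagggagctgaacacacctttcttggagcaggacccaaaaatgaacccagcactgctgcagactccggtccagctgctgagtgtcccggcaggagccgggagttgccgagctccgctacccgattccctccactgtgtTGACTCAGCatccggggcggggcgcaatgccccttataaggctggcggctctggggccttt

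A match describes these letters only and says nothing of binding in these cells. Nor does a window without a match show that the gene lacks such a site, which may lie outside the window or differ in letters.

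The wider pathway was read through lists of other genes, each represented by its brightest probe. Among 22 genes of cystine import and cysteine supply, 17 were tested, 0 were called higher and 1 lower, with a median difference of 0.037. The gene called lower was Slc1a4, a transporter of neutral amino acids, at -1.49 (SE 0.33, limma adjusted p = 0.0484). Its probe was above background on 2 of 7 knockout and 4 of 5 wild-type arrays. With normexp and its offset of 50 the difference was -0.46 (limma adjusted p = 0.729), and that offset draws differences of dim probes toward 0. Leaving out any array other than WT 3 also took the adjusted p of Slc1a4 past the threshold. Slc7a9, a cystine carrier of kidney and gut, gave 1.47 (limma adjusted p = 0.0853), Dpep1, a dipeptidase that splits cysteinylglycine, 1.07 (limma adjusted p = 0.102), and Oplah, which recovers glutamate from 5-oxoproline, 0.53 (limma adjusted p = 0.186). Dpep1 passed when blocked on the sample numbers (0.70, limma adjusted p = 0.0408) and among the arrays numbered 5 to 8 (0.93, limma adjusted p = 0.0490). Among those arrays 3 genes of the list were called lower, beside 2.2% of all probes. They were Cbs, which condenses homocysteine with serine, at -2.37 (limma adjusted p = 0.00235), Ggt1, which splits extracellular glutathione, at -0.76 (limma adjusted p = 0.0346), and Chac1, which degrades glutathione in the cytosol, at -0.89 (limma adjusted p = 0.0308). Over all 12 arrays they differed by 0.037, -0.15 and -0.51 and were not called. The Cbs probe was above background on only 4 of 7 knockout and 4 of 5 wild-type arrays. Its mean was -1.30 in KO 1 to KO 4, -6.19 in KO 5 to KO 7 and -3.83 in WT 5 to WT 8. The knockout arrays thus differed more between the sample-number sets than from the wild type. Slc3a2, the heavy chain that partners Slc7a11, differed by -0.33 (95% interval -0.81 to 0.16, limma adjusted p = 0.503), with medians of 2.16 in the knockout and 2.56 in the wild type.

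Peroxidases and transferases outside the 10 genes gave no calls. Of 15 genes for other glutathione peroxidases, glutaredoxins and related enzymes, 11 were tested, 0 were called, and the median difference was 0.17. The smallest p-values were those of Gpx8, a peroxidase of the endoplasmic reticulum, at -0.54, Hagh, a glyoxalase, at 0.35, and Glrx, a glutaredoxin, at 0.38. Of 14 other transferases tested among 26 on the list, 0 were called, with a median of 0.40. Mgst1, a microsomal transferase, read 1.92 to 2.28 in the knockout and 1.35 to 1.91 in the wild type, with every knockout array above every wild-type array, as 1.74% of all tested probes had. Its difference was 0.50 (limma adjusted p = 0.0891), that of Mgst3, another microsomal transferase, 1.08 (limma adjusted p = 0.0948), and that of Gstm2, of the mu class, 0.57 (limma adjusted p = 0.227). Blocked on the sample numbers, 1 transferase was called higher, Mgst3 (0.71, limma adjusted p = 0.0276), beside 2.95% of all probes. Among the arrays numbered 5 to 8, 2 transferases were called higher, beside 2.01% of all probes. Mgst3 was 1 of them (0.86, limma adjusted p = 0.0386). Of the other Abcc pumps 3 were tested, and Abcc10, Abcc4 and Abcc5 differed by -0.40, -0.07 and -0.08 with 0 called.

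NRF2 is the transcription factor that raises many of these genes under oxidative or electrophilic stress. Of its targets outside the glutathione system 21 were tested, 0 were called, and the median difference was 0.20. At an unadjusted p under 0.05 there were 5 higher and 1 lower, beside 9.2% and 6.62% of all tested probes. Prdx1, a peroxiredoxin, and Fth1, the ferritin heavy chain, had every knockout array above every wild-type array, as 1.74% of all tested probes did. They differed by 0.38 (limma adjusted p = 0.120) and 0.42 (limma adjusted p = 0.125), and were 2 of the 21 tested. Slc48a1, a heme transporter, differed by 0.90 (limma adjusted p = 0.121). Among 8 regulators tested 0 were called. Nfe2l2, which encodes NRF2, differed by -0.20 (95% interval -0.49 to 0.10, limma adjusted p = 0.506), and the smallest p-values were those of Nfe2l1, a related factor, at -0.45, Keap1, which marks NRF2 for degradation, at 0.43, and Rbx1, a subunit of the ubiquitin ligase, at 0.31.

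ATF4 is the transcription factor of the amino acid response and is known to induce Slc7a11. Of 18 genes of its pathway 17 were tested, 0 were called higher and 1 lower, against 0.442% of all probes called lower, with a median difference of -0.45 beside 0.035 for all tested probes. Nupr1, a stress-induced chromatin protein, fell by 1.49 on the log2 scale (SE 0.21, limma adjusted p = 0.0105). It read 0.96 to 1.63 in the knockout, median 1.15, and 1.94 to 3.28 in the wild type, median 2.83, with no overlap. Trib3, a pseudokinase that dampens the same response, differed by -1.10 (limma adjusted p = 0.0579) and Shmt2, the mitochondrial serine hydroxymethyltransferase, by -0.45 (limma adjusted p = 0.0922), both with every knockout array below every wild-type array. With Nupr1 that made 3 of the 17 tested, beside 0.933% of all tested probes. Ddit3, a stress transcription factor, differed by -0.66 (limma adjusted p = 0.109) and Atf4 by -0.30 (limma adjusted p = 0.330). At unadjusted p under 0.05, 8 of the 17 were lower and 0 higher, beside 6.62% and 9.2% of all tested probes. The count called lower was 4 when blocked on the sample numbers (2.15% of all probes lower), 6 among the arrays numbered 5 to 8 (2.2% of all probes lower), and 6 without WT 3 (1.86% of all probes lower). Other settings called fewer probes. With the replicate number as a block, without the filter on dim probes and within slides 1 and 3, 0 probes of the array were called lower. Without WT 5 and without WT 8 only 5 and 4 probes of the array were called lower. These genes were listed with earlier results of these data known.

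Of 10 ferroptosis genes tested 0 were called. Gch1, which makes the cofactor tetrahydrobiopterin, differed by 0.70 (limma adjusted p = 0.0525), Ptgs2, a cyclooxygenase, by -0.82 (limma adjusted p = 0.176) and Lpcat3, which places polyunsaturated acyl chains into phospholipids, by 0.64 (limma adjusted p = 0.319). Blocked on the sample numbers, Gch1 and Lpcat3 were called higher (limma adjusted p = 0.0370 and 0.0104), beside 2.95% of all probes.

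**Figure D4:**
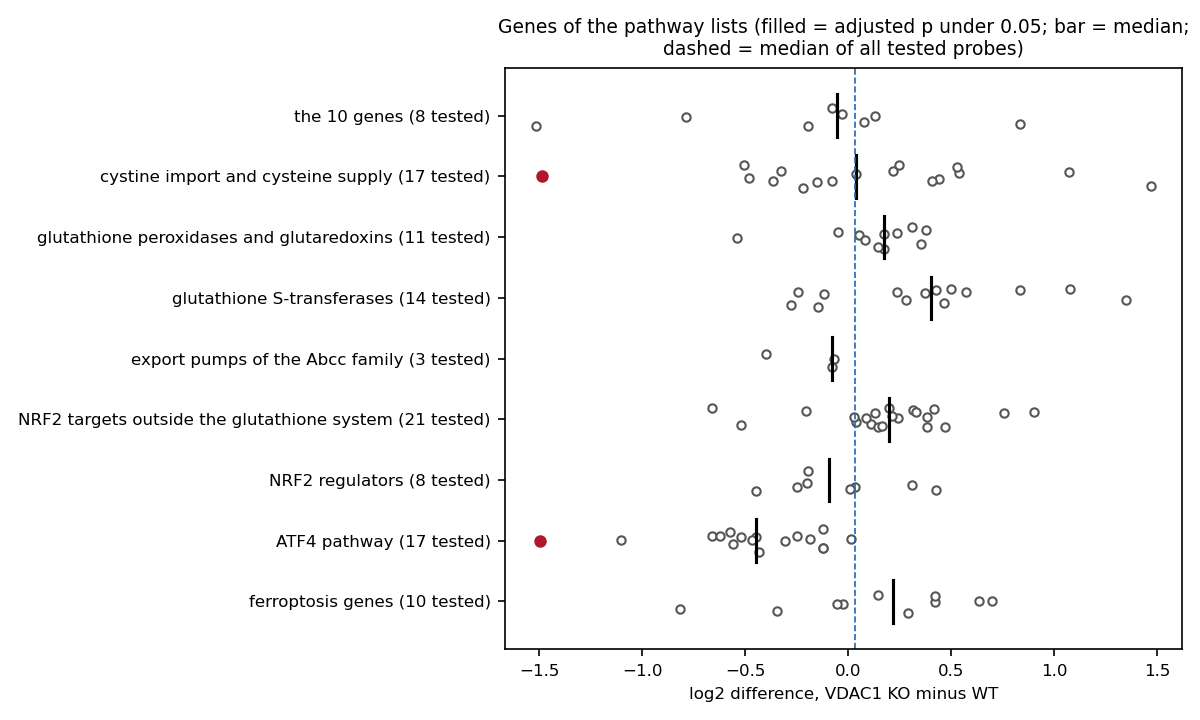
Difference of mean log2 signal, VDAC1 knockout minus wild type, for each tested gene of the 10 genes and of 8 further lists, with a bar at each list's median and a dashed line at the median of all tested probes (0.035). Filled points passed the threshold, Slc1a4 at -1.49 and Nupr1 at -1.49, and the ATF4 pathway has the lowest median of the lists shown, -0.45.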

How the data were processed

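Total RNA of 12 N27 cultures was labelled with Cy3, per the labels' protocols. The deposited scanner files give the linear intensity of each spot, from Agilent Feature Extraction 10.1.1.1 per the file headers and 10.7 per the submitters' processing notes. The authors' deposited value table holds log2 values, alike in distribution between arrays, with a median of 3.06, and served as an alternative. After control spots and spots flagged as uneven or outlying were dropped, log2 processed signals were averaged per probe and expressed relative to the 75th percentile of their array. Of 45598 probes, 17890 were well above background on at least 5 of 12 arrays. Knockout and wild type were compared by limma 3.58.1 (R 4.3.3) with lmFit and eBayes, two-sided and without covariate, adjusted by Benjamini-Hochberg over all tested probes, with 0.05 as the threshold. The script was tested on simulated data.

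Genes are named as in the files. A gene's brightest probe stood for it in counts. The genes and lists were chosen with earlier results of these data known. The text names all 10 genes, Vdac1, each called gene of a list and its 3 smallest p-values, and, for genes ranging over more than 1 log2 unit, the 4 nearest profiles. Slc3a2, Cbs, Ggt1, Chac1, Nfe2l2, Atf4 and Th were added after their values were seen, and the profiles nearest Gss, Gpx1 and Gsta4 were computed and are not printed. A coordinate or probe match was not checked against a genome. The number of arrays limits the precision.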

Additional observations from a re-analysis of the deposited data

Results flagged for a closer look

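One wild-type array stood far from the other wild-type arrays on both probes of Gpx1. WT 3 read 1.40 at base 714, where the nearest other wild-type array read 2.44 and the farthest 2.82, and 0.33 at base 399, where the nearest read 1.47 and the farthest 1.89. The knockout arrays numbered 1 to 4 read 1.98 to 2.32 and 0.94 to 1.40 on these probes, and WT 3 is the only wild-type array in that range of sample numbers. Of 22 groups examined 2 were flagged in this way, where chance flags about 1 in 20.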

How the results depend on the processing

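The cause of the changes below was not tested. Over all probes limma called 126 higher and 79 lower, and 21 and 10 with normexp, 66 and 63 after quantile normalization, 64 and 65 in the deposited table, 0 and 0 without the filter on dim probes (where 2434 had an unadjusted p under 0.05), 211 and 132 with detection on all 12 arrays, 284 and 188 with slide as a block, 528 and 385 blocked on sample numbers, and 360 and 393 among numbers 5 to 8. Within slide 2 they were 1105 and 1063, with 1 wild-type array, and within slides 1 and 3, 0 and 0. Leaving out 1 array gave 13 to 442 higher and 4 to 333 lower, the most without WT 3. The count of the 10 genes called lower was 0, where 0.442% of all tested probes were. With arrays centred on the median it was 1 (Slc7a11, 0.425% of probes lower), as with array brightness as a covariate (Slc7a11, 0.425%). The count was 2 (Slc7a11 and Abcc1) with detection on all 12 arrays (1.02%), slide as a block (1.05%) and sample numbers as a block (2.15%). Without single arrays it was 0 to 1 (1 without WT 3, 1.86%). The fit within slide 2, with 1 wild-type array, is not part of these counts of the 10 genes. The median of the 8 genes tested ran from -0.10 to 0.003 without single arrays, and was -0.18 among numbers 5 to 8 and -0.31 within slide 3. Vdac1 passed with quantile normalization (-1.33), the deposited table (-1.35), detection on all 12 arrays (-1.23), slide as a block (-1.38), blocking on sample numbers (-1.58) and numbers 5 to 8 (-1.80).

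The shared sample numbers 5, 6 and 7 did not pair the arrays, with correlations of deviations of -0.11, 0.07 and 0.05. For number 3 the correlation was 0.45, and WT 3 was the best wild-type match for KO 3. WT 3 is the only wild-type array numbered 1 to 4, so pairing and sample-number set cannot be told apart there. With the replicate number as a block limma called 0 probes in either direction (1849 at unadjusted p under 0.05), and the differences were 0.17 for Gpx1, -1.21 for Slc7a11 and -0.92 for Abcc1.

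Signs turned in the following cases. Gpx1 was 0.0039 with normexp, 0.25 blocked on sample numbers, 0.037 among numbers 5 to 8 and 0.80 within slide 1, and -0.28 to 0.078 without single arrays. Gclc was -0.041 among numbers 5 to 8 and -0.033 within slide 3, Gss 0.31 within slide 2 and -0.19 to 0.070 without single arrays, Gpx4 0.048 within slide 2, and Gstp1 -0.14 and -0.042 within slides 2 and 3. On settings added for the lists after the data were seen, Abcc4 was 0.067 among numbers 5 to 8 and 0.18 within slide 3. Abcc5 was 0.023 with slide, 0.064 with the replicate number and 0.027 with sample numbers as blocks, -0.20 to 0.0080 without single arrays, 0.25 among numbers 5 to 8 and 0.44 within slide 3, Glrx -0.22 within slide 1, and Lpcat3 -0.15 within slide 2. Cbs, 0.037 over all arrays, was -2.37 among numbers 5 to 8 (limma adjusted p = 0.00235). Slc7a11, Abcc1 and Gsta4 kept their sign under every setting run. The size of the Gsta4 difference was not stable, at 0.35 and 0.25 within slides 1 and 2 and 1.603 within slide 3. Signal at background limits Gclm, Gsr, Gsta4, Cbs, Slc1a4 and the second probes of Slc7a11 and Abcc1.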
